A study of Homo sapiens with 12 samples.

Results

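The histone transcripts of OVCAR-3 cells were read by 52 detected probes of 44 genes, out of 94 probes of 80 genes on the array whose single gene symbol starts with H1-, H2AC, H2BC, H3C, H4C, H2AZ, H2AX, H2AJ, H3-3 or MACROH2A. A probe was kept when its detection p-value was under 0.01 on at least 3 of the 12 arrays. Of the kept probes, 39 read 35 clustered genes and 13 read 9 variant genes, and they stood among 14441 detected probes with 1 gene and 47322 probes in all. The 42 probes that were not kept were detected on 0 arrays. Just inside the threshold, H2BC14 and H3C14 were detected on 3 arrays and H2AC4 and H3C12 on 5. Of the 52 probes, 37 were detected on all 12 arrays, 26 of them clustered and 11 variant.

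Histones package DNA into nucleosomes, each an octamer of H2A, H2B, H3 and H4, with a linker H1 outside it. The replication-dependent genes lie in clusters, lack introns and are transcribed mainly in S phase, and most of their mRNAs end in a stem-loop rather than a poly(A) tail, although several of these genes can also give polyadenylated mRNA in differentiated or arrested cells. The variant genes lie outside the clusters, and most give polyadenylated mRNA that is not limited to S phase. They encode proteins with other roles, such as H2A.Z and H3.3 at active genes, H2AX at DNA breaks and macroH2A in silenced chromatin.

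OVCAR-3 is an established line from high-grade serous ovarian carcinoma. All 4 groups were transfected with small interfering RNA (siRNA) by Lipofectamine RNAiMAX and harvested after 72 hours, with 3 arrays each: control siRNA, Oct4 siRNA (siOct4, gene POU5F1), Ccnf siRNA with Nipp1 siRNA (siCcnf+siNipp1, genes CCNF and PPP1R8) and Rb1 siRNA (siRb1). The combined siRNA group does not separate CCNF from NIPP1, and all groups come from 1 cell line. Arrays of a group are labelled as biological replicates with no word on separate cultures, so p-values measure only the spread between these samples, which may be technical. In a bulk sample, fewer cells in a state and less RNA per cell cannot be told apart.

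Signals are given on a log2 scale after background correction and quantile normalization, where 1 unit is a 2-fold difference in signal. Between 16186 and 17351 probes were detected per array, 43 to 49 of them histone members, and correlations across probes were 0.979 to 0.988 between arrays of a group and 0.94 to 0.985 between groups. POU5F1 was undetected on the siOct4 arrays (at least 15.88-fold lower than control), RB1 was undetected on the siRb1 arrays (means 7.76 in control and 5.87, adjusted p = 0.001025), CCNF fell by 1.55 with siCcnf+siNipp1, and no named probe read PPP1R8. Targets also changed in other groups: CCNF fell by 0.96 and RB1 by 0.61 with siOct4 (adjusted p = 0.01335 and 0.04352), and with siCcnf+siNipp1 the POU5F1 signal was higher by 1.03 (0.002981). Of 9 markers of ovarian carcinoma and epithelium 8 were detected, PAX8 and EPCAM on all arrays, while WT1 was not. Of the fibroblast, leukocyte and endothelial markers, COL1A1 of 6, CD68 of 5, and VWF and CDH5 of 4 were detected. CDH1, an epithelial adhesion gene, had means of 10.54 in control and 7.44, 7.9 and 8.96 with siOct4, siCcnf+siNipp1 and siRb1, KRT8 was detected in control only, and MSLN was undetected with siCcnf+siNipp1. Other markers had higher means with siOct4 than in control: KRT7 (9.17 and 7.64), PAX8 (12.35 and 11.77), KRT18 (9.82 and 9.66) and the leukocyte marker CD68 (11.93 and 10.8). The part of these markers in the histone results was not tested.

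Promoter sequences of the clustered and variant members were compared for short motifs. RefSeq's windows on GRCh38.p14, 250 bases before to 50 after each gene's start, were found for 42 of the 44 genes, not for H3C12 and H4C3. Of the 33 clustered genes with a window 22 lie on chromosome 6 and 11 on chromosome 1. They were searched on both strands for the octamer ATTTGCAT (reverse ATGCAAAT), to which OCT4 and its relative POU2F1 can bind, for CCAAT (reverse ATTGG) and for TATAAA (reverse TTTATA). The octamer letters stood in 48.5% of clustered genes (16 of 33), 1 of 9 variant genes (H3-3B) and 2.19% of all 27305 genes of the table. By family it stood in 8 of 9 H2B genes, 7 of 10 H2A genes, 1 of 7 H3 genes and 0 of 6 H4 genes. CCAAT stood in 81.8% of clustered genes, 77.8% of variant genes and 39.7% of all, but in 0 of 6 H4 genes. TATAAA stood in 78.8% of clustered genes, 44.4% of variant genes and 14% of all. A match is a description of letters, not a bound site.

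The sequences below were chosen because their genes carry the main results. The first pair are the complete stretches between the starts of divergent H2A and H2B genes, which share 1 promoter, and the others are the 250 bases before the start of 1 gene each. Capitals mark matches to the octamer, CCAAT or TATAAA letters on either strand, and TTTATA and TATAAA overlap in H2BC12.
H2AC6 and H2BC4 shared promoter (chr6:26123927-26124171, plus strand): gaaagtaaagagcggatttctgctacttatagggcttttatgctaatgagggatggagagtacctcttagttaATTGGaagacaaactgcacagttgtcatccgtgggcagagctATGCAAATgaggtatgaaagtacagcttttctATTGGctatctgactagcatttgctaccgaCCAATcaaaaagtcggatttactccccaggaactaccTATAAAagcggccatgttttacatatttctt
H2AC20 and H2BC21 shared promoter (chr1:149886683-149886917, plus strand): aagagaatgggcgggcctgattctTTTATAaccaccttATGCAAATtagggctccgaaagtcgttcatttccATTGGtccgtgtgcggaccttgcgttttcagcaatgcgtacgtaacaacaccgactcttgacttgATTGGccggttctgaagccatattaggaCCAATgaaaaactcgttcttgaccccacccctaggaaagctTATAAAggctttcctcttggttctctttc
H2BC5 promoter (chr6:26157871-26158120, plus strand): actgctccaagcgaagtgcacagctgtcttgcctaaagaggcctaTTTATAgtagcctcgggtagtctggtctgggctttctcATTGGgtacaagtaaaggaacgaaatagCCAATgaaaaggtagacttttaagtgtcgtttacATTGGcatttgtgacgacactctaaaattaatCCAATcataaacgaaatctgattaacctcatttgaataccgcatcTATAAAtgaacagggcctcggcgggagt
H2BC12 promoter (chr6:27146856-27147105, minus strand): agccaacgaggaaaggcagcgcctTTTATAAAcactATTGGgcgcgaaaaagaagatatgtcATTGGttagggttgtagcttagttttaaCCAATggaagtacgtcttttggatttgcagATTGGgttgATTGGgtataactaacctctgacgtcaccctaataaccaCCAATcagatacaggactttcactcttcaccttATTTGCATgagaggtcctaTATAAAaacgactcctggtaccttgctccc
H4C8 promoter (chr6:26285535-26285784, minus strand): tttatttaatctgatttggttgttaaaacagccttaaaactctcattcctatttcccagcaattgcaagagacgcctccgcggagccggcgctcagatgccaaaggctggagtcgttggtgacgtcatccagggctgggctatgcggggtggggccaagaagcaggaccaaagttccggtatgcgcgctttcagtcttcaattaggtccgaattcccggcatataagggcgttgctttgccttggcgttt
H4C12 promoter (chr6:27831561-27831810, minus strand): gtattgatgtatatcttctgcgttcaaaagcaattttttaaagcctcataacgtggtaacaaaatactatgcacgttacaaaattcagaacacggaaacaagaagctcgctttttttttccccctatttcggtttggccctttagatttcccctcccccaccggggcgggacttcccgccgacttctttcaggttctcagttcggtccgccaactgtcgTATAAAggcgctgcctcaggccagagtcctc
The H2AC6 and H2BC4 promoter, the H2AC20 and H2BC21 promoter and the H2BC12 promoter hold 1 octamer match each. The H2BC5 promoter holds CCAAT and TATAAA letters and no octamer match. The H4C8 window holds no match to the motifs searched, and the H4C12 window only TATAAA.

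Which histone transcripts change after OCT4 knockdown was asked by comparing siOct4 with control, which does not tell direct from indirect changes. Of the 11 clustered H2A probes 7 rose, led by H2AC6, while both H2A.Z genes, 2 of the 3 MACROH2A1 probes and several H3 and H4 probes fell. Of the 52 probes 13 rose and 11 fell at an adjusted p under 0.05 (limma, adjusted by Benjamini-Hochberg over all 14441 probes), against 15.7% rising and 16.4% falling over all probes tested. The clustered probes gave 12 higher and 5 lower of 39, with a median log2 change of 0.49, and the variant probes 1 higher and 6 lower of 13, with a median of -0.34. The median over all probes was -0.03. The 5 lower clustered probes were 3 without control replicate 2 or without siOct4 replicate 3. The clustered median was 0.79 without siOct4 replicate 1 and 0.30 without siOct4 replicate 2, and the variant median was -0.56 with 1 probe per gene.

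**Figure D1:**
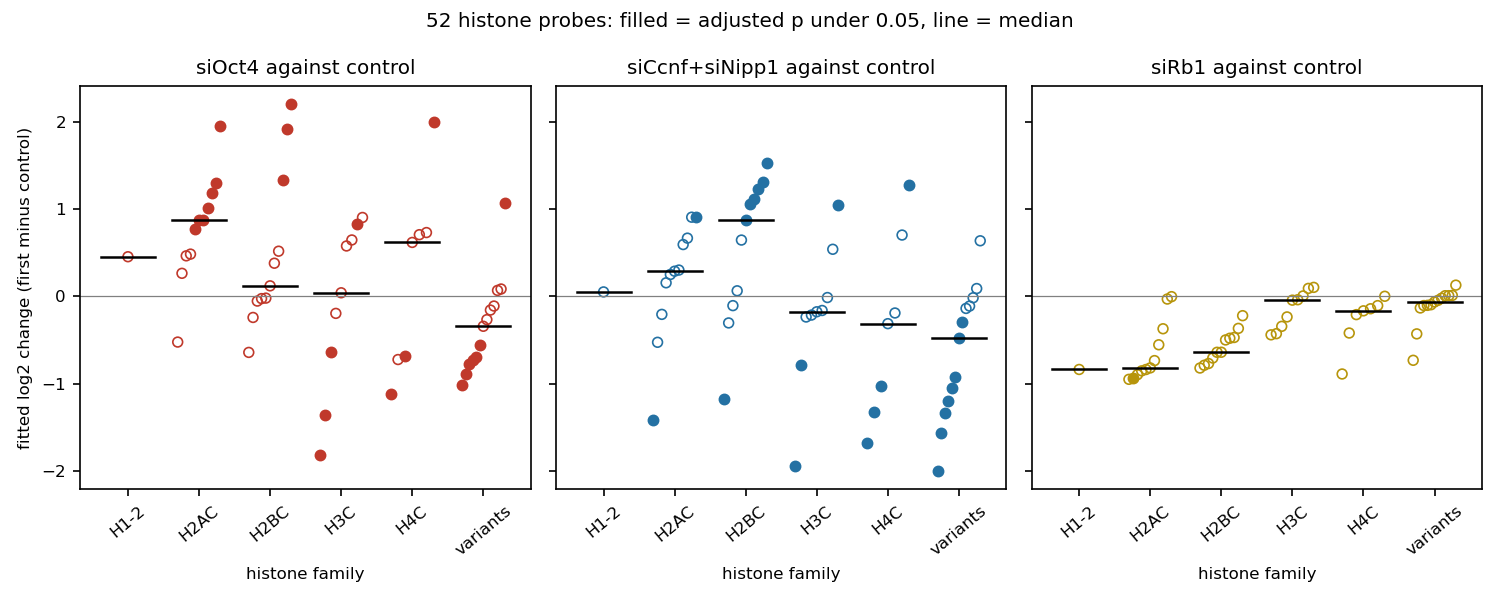
Fitted log2 change against control (y axis) of the 52 histone probes by family (x axis) in the 3 knockdowns, with filled points for an adjusted p under 0.05 and a line at each family's median. With siOct4 the H2AC median is 0.88, with siCcnf+siNipp1 the H2BC median is 0.88, and with siRb1 the H2AC and H2BC points all lie at or below 0.

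H2A genes moved most uniformly with siOct4: 7 of 11 probes rose, 0 fell, and the median change was 0.88. H2AC6, whose mRNA can be polyadenylated, read 9.74, 9.13 and 9.98 on the control arrays, 10.72, 11.99 and 12.02 with siOct4, 10.18, 10.64 and 10.77 with siCcnf+siNipp1, and 8.82, 8.19 and 9.33 with siRb1. All siOct4 arrays lay above all control arrays, and the siRb1 arrays overlapped the controls. The change with siOct4 was 1.96 ± 0.37 (SE, adjusted p = 0.002074), a 3.89-fold rise. With siCcnf+siNipp1 the 3 arrays also lay above control, and the change of 0.91 missed the threshold (adjusted p = 0.07614) but passed with the replicate number as a block (0.04301) and in some other alternatives.

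H2AC18 and H2AC19 are near-identical copies whose 300-base promoter windows share a run of 299 bases, so their probes may not tell them apart. With siOct4 H2AC18 rose by 1.31 and 1.18 at its 2 probes and H2AC19 rose by 1.01. H2AC11 rose by 0.88 (adjusted p = 0.009238). H2AC8 and H2AC20 also passed, at 0.88 and 0.77, and both lost the call when siOct4 replicate 2 or 3 or control replicate 1 was left out, H2AC8 also without control replicate 2 and H2AC20 also without control replicate 3 (adjusted p up to 0.17 and 0.1719). Here and in what follows, such a highest adjusted p is the highest over all alternative settings. H2AC25, H2AC21 and H2AC17 gave 0.49, 0.47 and 0.27, and H2AC4 -0.52, none past the threshold. Without siOct4 replicate 2, the only siOct4 array on which it was detected, H2AC4 passed as lower (adjusted p = 0.03381). H2AC4 passed the detection filter only through its control arrays, so this pass is a description and no support for a fall.

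H2B genes split with siOct4, 3 of 11 probes rising and 0 falling. H2BC5, a clustered gene known to give polyadenylated mRNA, read 10.51, 10.05 and 10.41 in control, 11.92, 12.86 and 12.80 with siOct4, 11.34, 11.55 and 11.76 with siCcnf+siNipp1, and 9.94, 9.48 and 10.12 with siRb1. The control, siOct4 and siCcnf+siNipp1 arrays formed 3 separate ranges, while siRb1 overlapped control at its top. The change with siOct4 was 2.20 ± 0.25 (adjusted p = 9.616e-05), and 1.92 at the second H2BC5 probe. H2BC21 rose by 1.34 (adjusted p = 0.006886). H2BC12, H2BC4, H2BC6, H2BC8, H2BC11, H2BC14 and H2BC18 lay between -0.64 and 0.52 with none called. Without siOct4 replicate 1, H2BC8 passed as higher and H2BC14 as lower (adjusted p = 0.01025 and 0.006668). That array was the only siOct4 array on which H2BC14 was detected, and it was detected on 1 control array. The pass of H2BC14 therefore lies at the detection limit and is no support for a fall.

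H3 genes went both ways. H3C1 read 7.88, 8.01 and 7.92 in control, 6.56, 6.39 and 6.75 with siOct4, 7.64, 7.60 and 7.93 with siCcnf+siNipp1, and 7.48, 7.20 and 7.85 with siRb1. The siOct4 arrays alone lay more than 1 unit below control, and 1 of them was undetected. H3C1 fell by 1.37 ± 0.17 with siOct4 (adjusted p = 0.0001439). H3C12 read 6.88, 8.14 and 7.60 in control, 6.01, 5.56 and 5.60 with siOct4, 5.67, 5.52 and 5.59 with siCcnf+siNipp1, and 6.12, 8.09 and 7.39 with siRb1. It was undetected on all siOct4 and siCcnf+siNipp1 arrays, so it was at least 1.932-fold and at least 1.849-fold lower than control. H3C12 passed the detection filter only through its control arrays, where it is high, so its place among the lower calls is a description and no support for them. For such a bound, the undetected group is given on each array the lowest signal at which any probe was detected there, or the probe's own signal if that is higher.

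The other H3 probes changed less. H3C6 rose by 0.83 (adjusted p = 0.02963), not called without control replicate 2 or 3 or siOct4 replicate 2 or 3 (up to 0.1129). H3C7 and H3C10 gave 0.58 and 0.65 and did not pass, but did with the replicate block (adjusted p = 0.01735 and 0.04119) and without siOct4 replicate 1 (0.002831 and 0.009964). So did H3C4 (0.01109 and 0.00385), undetected in control and at least 1.541-fold higher. The 2 probes of H3C13 disagreed, -0.64 (called) at ILMN_3249188 and -0.19 (not called) at ILMN_1664706, and the called one lost its call without control replicate 2, siOct4 replicate 2 or siOct4 replicate 3. H3C14 gave 0.04.

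Among H4 genes H4C8 stood apart from the rest. H4C8 read 8.21, 7.76 and 8.57 in control, 9.29, 10.47 and 10.79 with siOct4, 8.85, 9.56 and 9.97 with siCcnf+siNipp1, and 7.47, 6.71 and 7.70 with siRb1. Every siOct4 and siCcnf+siNipp1 array lay above every control array, and every siRb1 array below. H4C8 rose by 1.9998 ± 0.40 with siOct4 (adjusted p = 0.002951). H4C3, the brightest clustered probe, read 15.66, 15.69 and 15.62 in control, 14.94, 14.32 and 14.36 with siOct4, 14.89, 14.53 and 14.48 with siCcnf+siNipp1, and 15.51, 15.52 and 15.45 with siRb1. The siOct4 and siCcnf+siNipp1 arrays of H4C3 overlapped each other, all below control, and siRb1 lay just under control. H4C3 fell by 1.12 ± 0.17 with siOct4 and by 1.03 ± 0.17 with siCcnf+siNipp1 (adjusted p = 0.0004838 and 0.0007306).

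H4C12 read 9.86, 10.20 and 10.04 in control, 9.48, 9.56 and 8.998 with siOct4, 8.31, 8.47 and 8.26 with siCcnf+siNipp1, and 9.51, 10.35 and 9.82 with siRb1. The siOct4 arrays lay below control and above siCcnf+siNipp1, overlapping the lowest siRb1 array, and siRb1 spanned the controls. H4C12 fell by 0.69 with siOct4 (adjusted p = 0.02478), not called without control replicate 2, control replicate 3 or siOct4 replicate 3 (up to 0.09896). H4C14 and H4C15, whose promoter windows are identical over 300 bases and whose probes may not tell them apart, gave 0.71 and 0.73 without passing, and H4C14 passed with the replicate block (adjusted p = 0.005933), without siOct4 replicate 1 (0.008695) and without control replicate 3 (0.04925). H4C11 gave -0.72, not called, and passed with the block (0.01533) and without control replicate 1 (0.03671), and H4C5 gave 0.62. The linker histone gene H1-2 gave 0.46, not called, and passed with the block (0.02636).

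**Figure D2:**
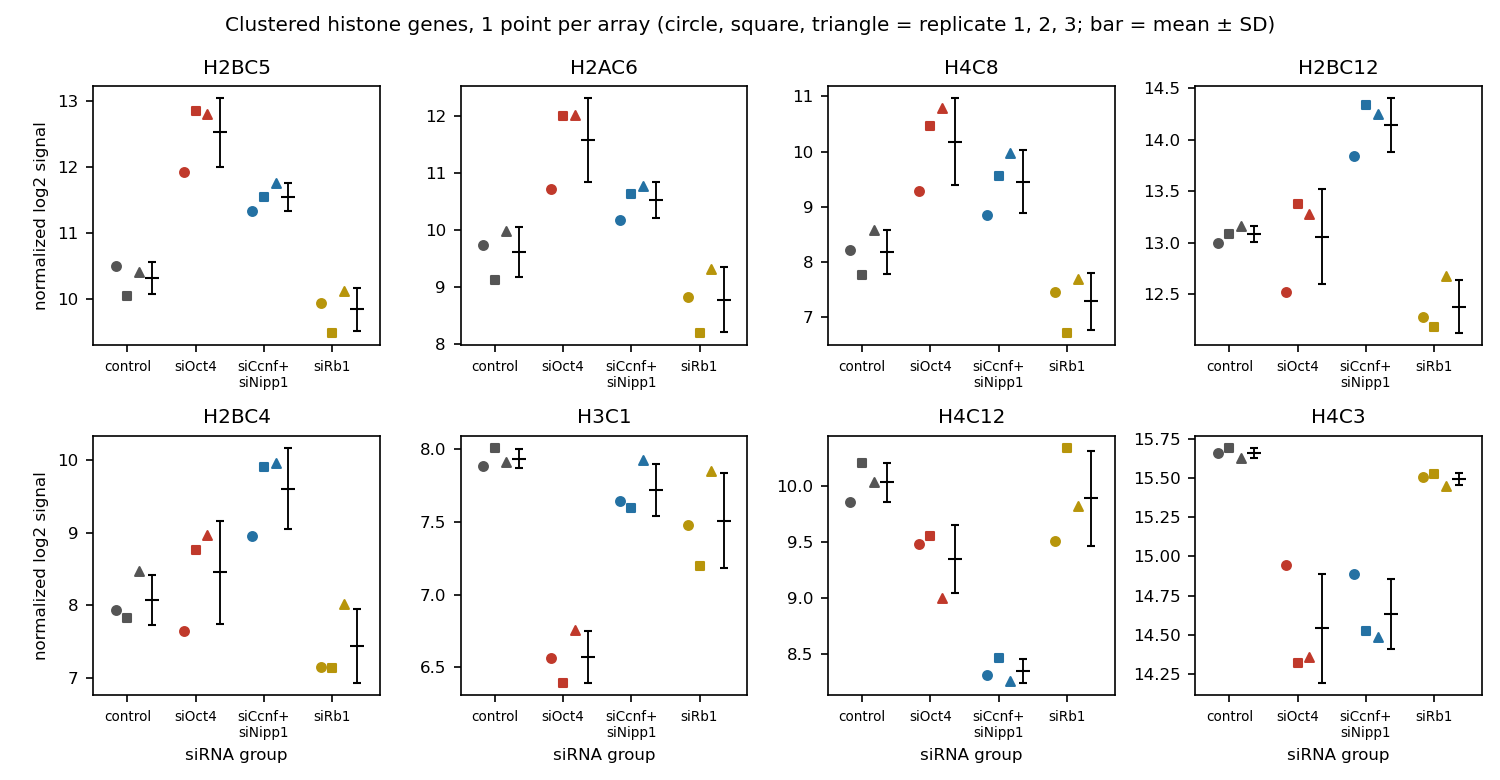
Normalized log2 signal (y axis) of 8 clustered genes on each of the 12 arrays by siRNA group (x axis), with mean ± SD beside each group of 3. H2BC5, H2AC6 and H4C8 are higher with siOct4 than in control, H2BC12 and H2BC4 are highest with siCcnf+siNipp1, H3C1 is lowest with siOct4, H4C12 is lowest with siCcnf+siNipp1, and H4C3 is low in both.

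Replicate 1 of the siOct4 group lay apart from replicates 2 and 3 for these genes. It was the lowest of its 3 arrays for 13 of the 13 probes that rose and for 29 of the 39 clustered probes, but for 3 of the 13 variant probes. In the siCcnf+siNipp1 group replicate 1 was lowest for 9 of the 9 probes that rose and for 27 of the 39. In control and siRb1 replicate 1 was lowest for 15 and 17 of the 39 clustered probes, and replicate 2 for 18 and 20. The share over all probes was not counted, so a pattern of the whole array cannot be told from 1 of these genes. SiOct4 replicate 1 had the most detected probes of the 12 arrays (17351), and the part of depth or batch in this pattern was not tested.

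Variant genes mostly fell with siOct4. H2AZ2, which encodes a form of the variant H2A.Z, read 8.07, 7.67 and 7.83 in control, 6.75, 6.67 and 7.09 with siOct4, 6.63, 6.57 and 6.79 with siCcnf+siNipp1, and 7.98, 7.52 and 7.93 with siRb1. Its siOct4 and siCcnf+siNipp1 arrays lay below all control and siRb1 arrays. H2AZ2 fell by 1.02 ± 0.16 with siOct4 and by 1.19 ± 0.16 with siCcnf+siNipp1 (adjusted p = 0.0007478 and 0.0002705). H2AZ1, which encodes the other main form of H2A.Z, read 15.20, 15.11 and 15.25 in control, 14.57, 14.41 and 14.50 with siOct4, 14.83, 14.90 and 14.94 with siCcnf+siNipp1, and 15.05, 15.04 and 15.15 with siRb1. The siOct4 arrays were the lowest range and siCcnf+siNipp1 the next. H2AZ1 fell by 0.69 with siOct4 (adjusted p = 0.0004241) and by 0.30 with siCcnf+siNipp1, not called without any 1 of the 3 control or 3 siCcnf+siNipp1 arrays (up to 0.1195).

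MACROH2A1 encodes macroH2A1, an H2A variant with a large extra domain, and 3 probes read it. At ILMN_2373495, the brightest, the arrays read 14.99, 14.87 and 15.003 in control, 14.44, 14.11 and 13.97 with siOct4, 13.66, 13.35 and 13.15 with siCcnf+siNipp1, and 14.94, 15.003 and 14.95 with siRb1. The siOct4 arrays lay below control, the siCcnf+siNipp1 arrays below siOct4, and siRb1 overlapped control. The changes were -0.78 ± 0.15 and -1.56 ± 0.15 for siOct4 and siCcnf+siNipp1 (adjusted p = 0.002375 and 3.375e-05). ILMN_1746171 gave -0.89 and -2.0006 (adjusted p = 0.0006386 and 5.342e-06). ILMN_1674034 gave 0.07 with siOct4, not called, and -1.34 with siCcnf+siNipp1 (adjusted p = 0.0001924), so the MACROH2A1 probes disagreed in their calls for siOct4 and not for siCcnf+siNipp1. MACROH2A2, its near relative, was dim and gave 0.08 and -0.14, not called.

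H2AX, whose protein is phosphorylated at DNA breaks, read 10.06, 9.83 and 9.34 in control, 9.36, 9.18 and 8.50 with siOct4, 9.04, 8.51 and 8.52 with siCcnf+siNipp1, and 9.63, 9.99 and 9.42 with siRb1. The siOct4 range touched the lowest control array and the siCcnf+siNipp1 range did not. H2AX fell by 1.06 with siCcnf+siNipp1 (adjusted p = 0.007578) and by 0.73 with siOct4 (0.04721), the latter lost without control replicate 1 or 2 or siOct4 replicate 2 or 3 (up to 0.1799). H1-10, a linker histone variant, read 10.40, 10.26 and 10.06 in control, 10.19, 9.91 and 9.59 with siOct4, 9.76, 9.13 and 9.06 with siCcnf+siNipp1, and 10.49, 10.49 and 10.12 with siRb1. Only its siCcnf+siNipp1 range lay clear of control, with a fall of 0.92 (adjusted p = 0.00507). The siOct4 change of -0.34 passed with the replicate block (0.04382).

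H2AJ was the exception among the variants. This H2A variant gene read 11.005, 11.29 and 11.16 in control, 11.50, 12.92 and 12.26 with siOct4, 11.40, 12.13 and 11.83 with siCcnf+siNipp1, and 10.17, 10.58 and 10.51 with siRb1. Both the siOct4 and siCcnf+siNipp1 ranges lay above control and the siRb1 range below it. H2AJ rose by 1.07 with siOct4 (adjusted p = 0.01624), lost without control replicate 1 or siOct4 replicate 2 (up to 0.06069). The siCcnf+siNipp1 change of 0.64 did not pass but did with the replicate block (0.01899), and likewise the siRb1 change of -0.73 (0.04004).

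The 2 genes of the variant H3.3 differed in their calls. H3-3B fell by 0.56 with siOct4 and by 0.47 with siCcnf+siNipp1 (adjusted p = 0.01322 and 0.02595), the first lost without control replicate 2 or 3 (up to 0.05364) and the second without control replicate 2 or 3 or siCcnf+siNipp1 replicate 1 or 2 (up to 0.09408). The 3 probes of H3-3A lay between -0.27 and -0.11 with siOct4 and between -0.11 and 0.09 with siCcnf+siNipp1, none called. With the replicate block 1 of them, at -0.27, passed for siOct4 (0.03688).

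**Figure D3:**
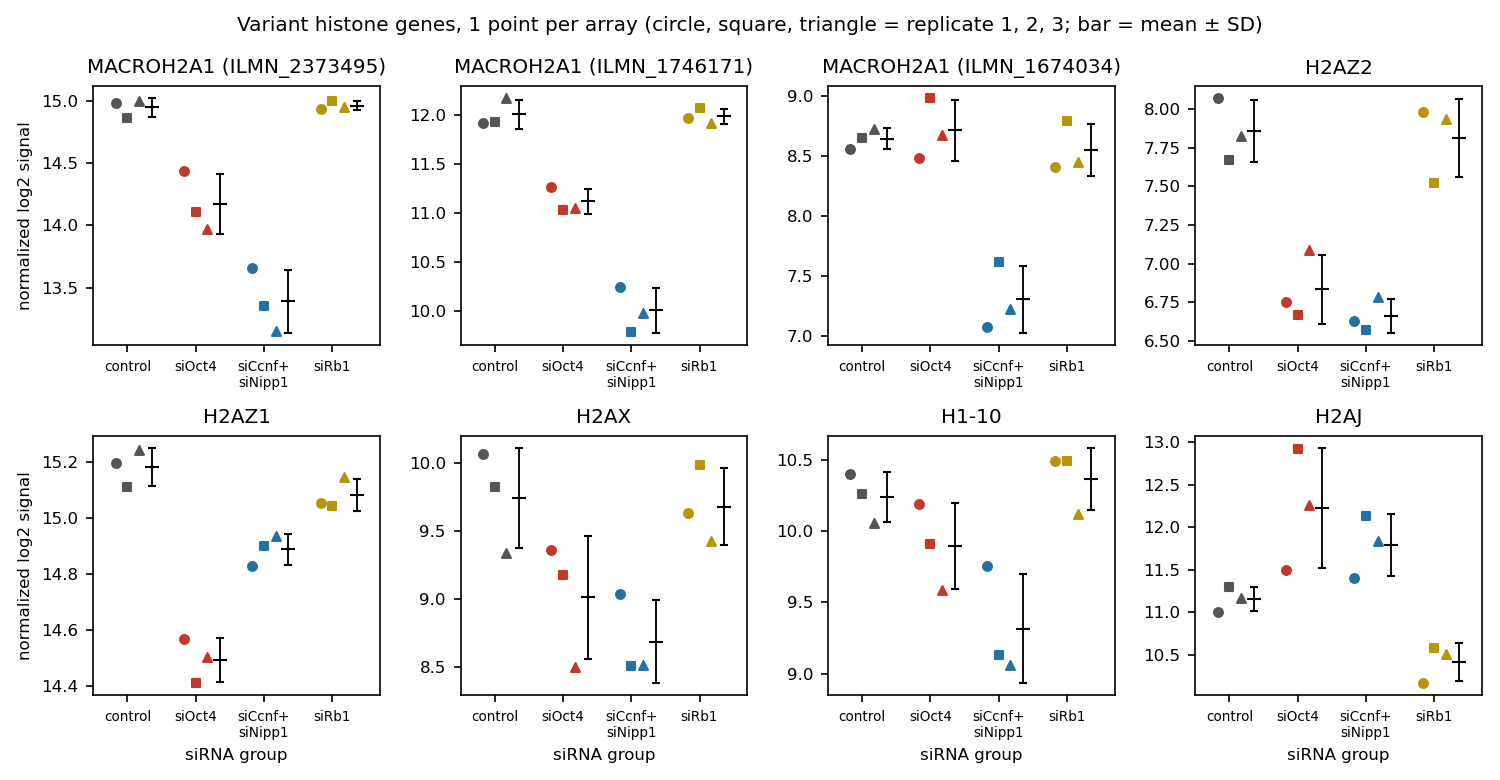
Normalized log2 signal (y axis) of 8 probes of 6 variant genes on each of the 12 arrays by siRNA group (x axis), with mean ± SD beside each group of 3. MACROH2A1 is lowest with siCcnf+siNipp1 at all 3 probes, H2AZ2 is low with siOct4 and siCcnf+siNipp1, and H2AJ is higher in both than in control.

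The comparison of siCcnf+siNipp1 with control, which shares its control arrays with the siOct4 comparison, gave 9 probes higher and 15 lower, against 17.4% and 18.6% over all probes. Here H2B rather than H2A genes held most of the rising probes in the main fit: 6 of 11 H2B probes rose and 1 fell (median 0.88), and 1 of 11 H2A probes rose and 1 fell (median 0.29). The 6 H2B probes include both probes of H2BC12. With the replicate block H2AC6, H2AC19 and the second H2AC18 probe also passed as higher, and so did the second H2BC5 probe. The 39 clustered probes gave 9 higher and 7 lower with a median of 0.06, which was -0.04 without siCcnf+siNipp1 replicate 3, 0.32 without siCcnf+siNipp1 replicate 1, 0.16 without control replicate 2 or 3 and 0.02 without control replicate 1. The 13 variant probes gave 0 higher and 8 lower, with a median of -0.47, against -0.01 over all probes. The count of 9 became 5 without control replicate 2, siCcnf+siNipp1 replicate 2 or siCcnf+siNipp1 replicate 3.

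H2BC4, which can give polyadenylated mRNA, read 7.93, 7.83 and 8.47 in control, 7.64, 8.76 and 8.97 with siOct4, 8.96, 9.91 and 9.96 with siCcnf+siNipp1, and 7.15, 7.13 and 8.02 with siRb1. The siCcnf+siNipp1 arrays lay above all control arrays and siOct4 spanned them. H2BC4 rose by 1.54 ± 0.38 with siCcnf+siNipp1 (adjusted p = 0.008065) and gave 0.38 with siOct4 (0.4788). H2BC12 at its brighter probe read 13.0006, 13.09 and 13.16 in control, 12.52, 13.37 and 13.28 with siOct4, 13.84, 14.34 and 14.25 with siCcnf+siNipp1, and 12.28, 12.18 and 12.67 with siRb1. The siCcnf+siNipp1 range stood above the others, siOct4 straddled control and siRb1 lay under it. H2BC12 rose by 1.06 and 1.31 at its 2 probes (adjusted p = 0.003196 and 0.003391).

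H2BC5 rose by 1.23 with siCcnf+siNipp1 (adjusted p = 0.002846), while its second probe gave 0.65, not called, and passed with the replicate block (0.02865). H2BC21 rose by 1.12, H4C8 by 1.28 and H2BC6 by 0.88 (adjusted p = 0.01604, 0.02782 and 0.04587), and all 3 lost the call without control replicate 2, siCcnf+siNipp1 replicate 2 or siCcnf+siNipp1 replicate 3. H4C8 and H2BC6 also lost it without control replicate 1, and H2BC6 without control replicate 3 (adjusted p up to 0.06755, 0.1072 and 0.1672 in the order named). H2AC18 rose by 0.92 at 1 probe, and gave 0.67, not called, at the other. That probe and H2AC19, at 0.59, passed with the block (0.01324 and 0.03845) and without siCcnf+siNipp1 replicate 1 (0.003459 and 0.04744). H3C4 was undetected in control and at least 1.703-fold higher with siCcnf+siNipp1 (adjusted p = 0.0423), not called without any 1 control array, siCcnf+siNipp1 replicate 2 or siCcnf+siNipp1 replicate 3 (up to 0.1433).

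H4C12 fell by 1.69 ± 0.21 with siCcnf+siNipp1 (adjusted p = 0.0001442), the largest called fall among clustered probes detected on all 12 arrays. H4C11 was undetected on the siCcnf+siNipp1 arrays and at least 2.081-fold lower (adjusted p = 0.003354). H2AC4 read 7.38, 7.02 and 7.20 in control, 6.18, 7.29 and 6.56 with siOct4, 5.46, 5.67 and 6.23 with siCcnf+siNipp1, and 6.13, 6.75 and 6.25 with siRb1. It was detected on all control arrays, on 1 array each with siOct4 and siRb1, and on 0 with siCcnf+siNipp1, where it was at least 1.46-fold lower. Like H3C12, it passed the detection filter only through its control arrays. Both probes are still included in the counts of lower calls given here, where they are a description and no support. H2AC4 is also included in the counts of probes higher with siOct4 than with siCcnf+siNipp1. H3C13 at ILMN_3249188 was at least 1.339-fold lower (0.0069), and its other probe gave -0.24, not called. H2BC14 was called lower at the detection limit, detected on 1 control array and 0 siCcnf+siNipp1 arrays (means 6.61 and 5.43, adjusted p = 0.01313), and lost the call without control replicate 2 (0.05104).

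The other clustered probes did not pass with siCcnf+siNipp1. H3C6 gave 0.54, H4C5 0.70, H2AC20 0.30, H2AC11 0.29, H2AC8 0.25 and H2AC21 0.16. H1-2, H2BC8, H3C7, H2BC11, H3C14, H3C10, H4C14, H3C1 and H2AC25 lay between -0.21 and 0.06. H2BC18, H4C15 and H2AC17 gave -0.30, -0.31 and -0.53, and H2AC17 passed without siCcnf+siNipp1 replicate 3 (0.03695).

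**Figure D4:**
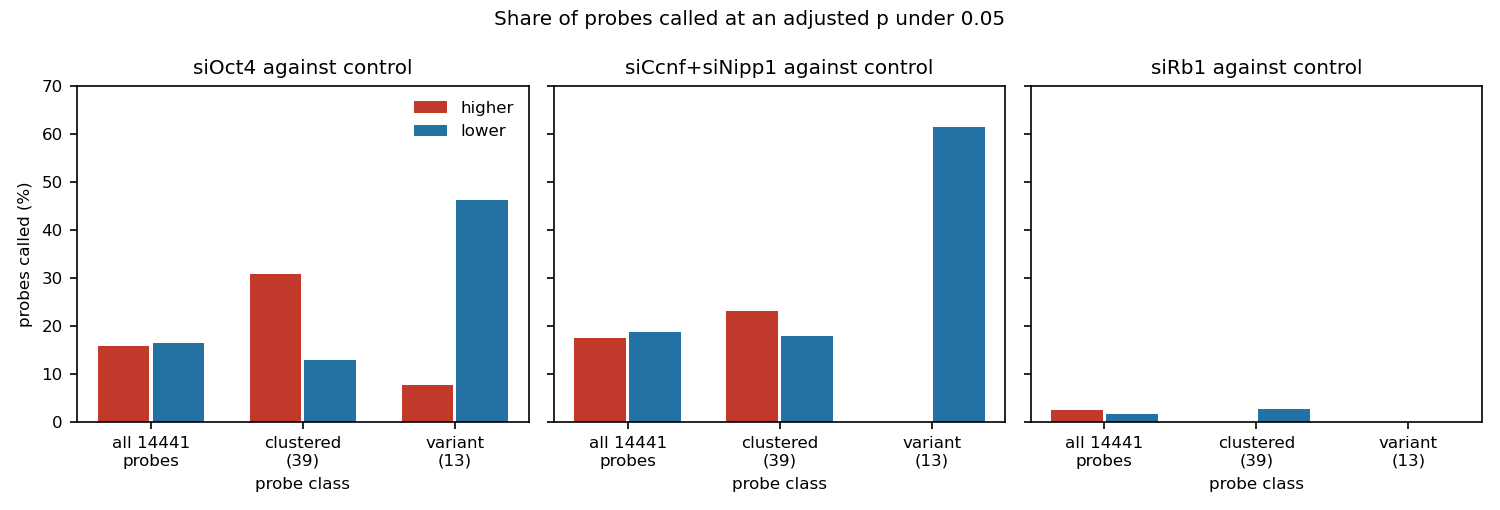
Share of probes called higher or lower (y axis, percent) among all 14441 probes, 39 clustered and 13 variant probes (x axis) in the 3 comparisons with control. With siOct4 30.8% of clustered probes are called higher against 15.7% of all, and with siCcnf+siNipp1 61.5% of variant probes are called lower against 18.6% of all.

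Whether the 2 knockdowns differ was tested directly in siOct4 against siCcnf+siNipp1, since their separate comparisons share control arrays. Of 52 probes 12 were higher and 6 lower with siOct4, where 16.6% of all probes were called in each direction. All 11 H2A probes had a positive difference, from 0.31 to 1.05, and 4 were called. H2B genes were called both ways. H2BC5 was higher with siOct4 by 0.97 and 1.28 at its probes (adjusted p = 0.01096 and 0.002612). H2BC12 was lower with siOct4 by -1.09 and -1.33 (0.002978 and 0.003328), H2BC6 by -1.12 (0.01663) and H2BC4 by -1.16 (0.03414). H2BC6 and H2BC4 lost the call without siOct4 replicate 1, siCcnf+siNipp1 replicate 2 or siCcnf+siNipp1 replicate 3 (adjusted p up to 0.07215 and 0.1268).

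H2AC6 and H2BC4, which start 245 bases apart on opposite strands, were called in opposite directions in this comparison. H2AC6 was higher with siOct4 by 1.05 (adjusted p = 0.04744), not called without siOct4 replicate 2 or 3 or any 1 siCcnf+siNipp1 array (up to 0.1547), and H2BC4 was lower. At the other divergent pairs neither gene was called in the main fit of this comparison: H2AC20 and H2BC21, 235 bases apart, gave 0.47 and 0.22, H2AC8 and H2BC8, 232 bases apart, gave 0.63 and 0.45, and H2AC11 and H2BC11, 247 bases apart, gave 0.59 and 0.23. With the replicate block H2AC20 passed as higher with siOct4 (adjusted p = 0.02525). Against control, H2BC21 rose with both knockdowns and its neighbour H2AC20 rose with siOct4 and gave 0.30, not called, with siCcnf+siNipp1.

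Beyond the H2A and H2B genes, H3C1 was lower with siOct4 than with siCcnf+siNipp1 by -1.15 (adjusted p = 0.0003368) and H4C12 was higher by 1.00 (0.003492). H2AC17 was higher by 0.79 (adjusted p = 0.009408). H2AC25, H3C10 and H4C14 were higher by 0.69, 0.82 and 0.90, and H2AC4, undetected with siCcnf+siNipp1, was at least 1.016-fold higher (adjusted p = 0.02818). Each lost the call without at least 2 single arrays, siCcnf+siNipp1 replicate 1 being 1 of them for all 4. Among variants, MACROH2A1 was higher with siOct4 at its 3 probes by 0.78, 1.11 and 1.41 (adjusted p = 0.002189, 0.0001314 and 0.0001232), and H2AZ1 lower by -0.39 (0.01049), not called under median scaling (0.203). The number of clustered probes higher with siOct4, 9, was 17 without siOct4 replicate 1, 5 without siOct4 replicate 2, 4 without siCcnf+siNipp1 replicate 1 and 15 with the replicate block, where 21.3% of all probes were higher. The number lower, 5, was 3 without siOct4 replicate 1, siCcnf+siNipp1 replicate 2 or siCcnf+siNipp1 replicate 3.

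**Figure D5:**
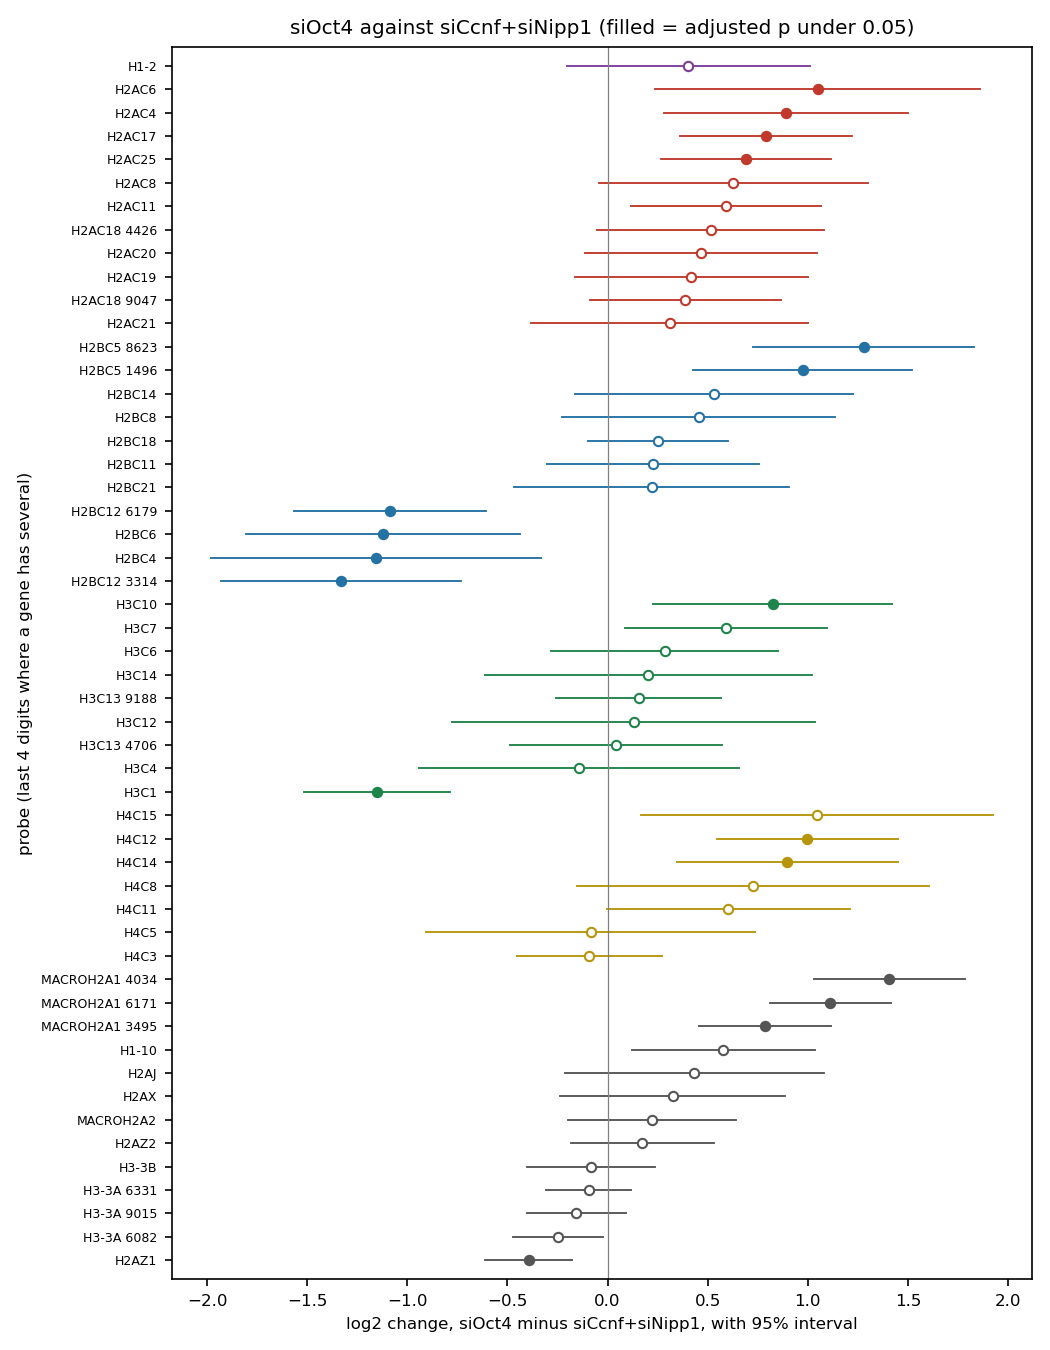
Fitted log2 change, siOct4 minus siCcnf+siNipp1 (x axis, with 95% interval), of each of the 52 probes (y axis, ordered by family), filled where the adjusted p is under 0.05. All H2A probes lie to the right of 0, and H2BC5 lies on the opposite side of 0 from H2BC12, H2BC6 and H2BC4.

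Knockdown of RB1, the repressor of E2F factors, was set against control in the same way. In the main fit, which leaves out the pairing by replicate number, only H2AC18 passed, at 1 of 52 probes. Of all probes 3.99% were called, 2.46% higher and 1.53% lower. H2AC18 at ILMN_1659047 read 11.72, 11.68 and 11.84 in control, 12.61, 13.47 and 13.07 with siOct4, 12.43, 12.87 and 12.68 with siCcnf+siNipp1, and 10.70, 10.54 and 11.18 with siRb1. The siRb1 range lay under control and the other groups above it. H2AC18 fell by 0.94 ± 0.22 (adjusted p = 0.03387), not called without any 1 control array, siRb1 replicate 1 or siRb1 replicate 2 (up to 0.1316). Its second probe gave -0.95 (0.06703).

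Many other clustered probes had lower values with siRb1 without passing the test. The fitted change was negative for 35 of 39 clustered probes, with a median of -0.44, against -0.01 over all probes, and the median ran from -0.60 to -0.28 over the alternatives. On 20 of the 52 probes every siRb1 array lay below every control array, and on 0 above, where 13.3% and 12.8% of all probes did so. With the replicate block 11 probes passed, all lower, where 9.11% of all probes were called and 4.04% called lower. They were H2AC18 at both probes, H2AC19, H2AC20, H2AC21, H2BC6, H2BC12 at both probes and H1-2 (-0.84, adjusted p = 0.008794), and the variants H2AJ and H3-3B (-0.43, 0.01464). H2AC8 and H2BC8 gave -0.74 and -0.79 without overlap and passed in neither fit.

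Other members had fitted changes near 0 with siRb1. H2AC17 gave -0.03 and H4C12 -0.14, and H2AC11, H4C11 and H3C6 lay within 0.01 of 0. The MACROH2A1 probes gave 0.01, -0.02 and -0.10, MACROH2A2 0.01, H2AZ2 -0.04, H2AX -0.06, H2AZ1 -0.10 and H1-10 0.13. The variant median was -0.06.

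Set against siRb1 rather than control, both other knockdowns showed more calls. With siOct4 21 probes were higher and 8 lower than with siRb1 (15.4% and 16% of all probes), and 20 of the 39 clustered probes were higher, among them H4C8 by 2.89, H2AC6 by 2.80 and H2BC5 by 2.68. With siCcnf+siNipp1 18 were higher and 11 lower than with siRb1 (16.6% and 17.3% of all), led by H2BC4 at 2.18, H4C8 at 2.17 and H2BC12 at 2.08. Over the 39 clustered probes siRb1 had the lowest group mean for 23 and siOct4 the highest for 23. Over the 13 variant probes siCcnf+siNipp1 had the lowest mean for 7 and control the highest for 7. The F test over the 4 groups called 42 of the 52 probes, where 55.2% of all probes were called. The 10 that did not pass were 3 of H3-3A and 1 each of H2BC11, H2BC18, H3C13, H3C14, H4C5, H4C15 and MACROH2A2. With the replicate block 32 members were called for siOct4 against control and 29 for siCcnf+siNipp1 against control (41.6% and 45.6% of all probes), 26 for siOct4 against siCcnf+siNipp1 (42.9%), and 40 and 32 for these groups against siRb1 (41% and 42.9%).

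Clustered genes known for polyadenylated transcripts (H2BC4, H2BC5, H2BC12, H2BC21, H2AC6 and H1-2, 8 probes) gave 4 higher and 0 lower with siOct4, 5 higher and 0 lower with siCcnf+siNipp1, and 0 called with siRb1, where their median was -0.67. The other 31 clustered probes gave 8 higher and 5 lower with siOct4, 4 higher and 7 lower with siCcnf+siNipp1, and 1 lower with siRb1, beside the shares over all probes given above. Against siRb1 all 8 were higher with siCcnf+siNipp1. These counts are of the main fit. With the replicate block, H1-2 and both H2BC12 probes were also lower with siRb1 than in control. Of the other 31, H2AC18 at both probes, H2AC19, H2AC20, H2AC21 and H2BC6 were lower in that fit. How cDNA was primed is not stated in the labels, and with oligo(dT) priming a probe reads only polyadenylated mRNA of these genes. The levels are therefore of what the labelling captured, and the part of priming in the changes was not tested.

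Split by the octamer letters, 17 clustered probes of 16 genes with a match gave 5 higher and 0 lower with siOct4 (median 0.38), and 20 probes of 17 genes without one gave 7 higher and 3 lower (median 0.63). With siCcnf+siNipp1 the same probes gave 6 higher and 2 lower (0.29) with a match, and 3 higher and 3 lower (-0.09) without. Over all probes tested, 15.7% rose and 16.4% fell with siOct4, and 17.4% and 18.6% with siCcnf+siNipp1. The match stood in 7 of 10 H2A and 8 of 9 H2B genes, but in 1 of 7 H3 and 0 of 6 H4 genes. Every clustered probe called lower with siOct4 was of an H3 or H4 gene, so octamer and family cannot be told apart in these counts. By chromosome of the window, the 13 clustered probes on chromosome 1 gave 5 higher and 1 lower with siOct4. The 24 on chromosome 6 gave 7 higher and 2 lower, and the medians were 0.71 and 0.49. H3C12 and H4C3, which have no window, are left out of both splits, and both were called lower with siOct4 and with siCcnf+siNipp1.

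Genes of S phase and of histone supply were counted by their brightest probe, where of all 10873 genes tested 16.9% rose and 16.1% fell with siOct4, 18.4% and 18.7% with siCcnf+siNipp1, and 2.67% and 1.51% with siRb1. Of 18 tested S-phase markers, such as PCNA, the sliding clamp of replication, and the MCM helicase genes, 17 fell with siOct4 (median -0.88), 18 with siCcnf+siNipp1 (median -0.98) and 0 with siRb1 (median -0.01). Of 28 chaperone and deposition genes 12 fell and 0 rose with siOct4, including CHAF1B, a subunit of the replication-coupled assembly factor CAF-1 (-1.96), NASP, an H3-H4 and H1 chaperone (-1.27), and HJURP and CENPA, the chaperone and the centromeric H3 variant it deposits (-1.45 and -1.26). With siCcnf+siNipp1 12 fell, with ASF1B at -1.48 and CHAF1B at -1.34, and DAXX, an H3.3 chaperone, rose by 0.67. With siRb1 0 of 28 were called.

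Of 13 tested genes for histone mRNA 3-prime end processing and transcription, 4 fell and 1 rose with siOct4. SLBP, which binds the stem-loop, fell by 0.36, NPAT, a coactivator of clustered histone genes, fell by 0.36, CSTF2 by 0.52 and CPSF3 by 0.33, and ZNF473, a zinc finger protein of the U7 machinery, rose by 0.73. With siCcnf+siNipp1 4 fell and 1 rose as well: SLBP fell by 0.37, CPSF3 by 0.41, CSTF2 by 0.39 and SRRT by 0.44, and NPAT rose by 0.39. No gene of this list was called with siRb1. Of the 4 genes of the octamer-binding list 3 had a named probe, and only POU5F1 passed the detection filter. The S-phase, chaperone and end-processing changes stood beside those of the histone members, and their part in them was not tested.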

How the data were processed

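Per the labels' protocols, biotin-labelled RNA was hybridised to Illumina bead arrays and stained with Cy3-streptavidin (12 arrays in 4 groups of 3). For each probe and array the authors deposited an intensity and the p-value of its detection, read in GenomeStudio per the submitters' processing notes, with the version not given in the sources used here, and a normalized intensity for 47303 probes whose method is not named. Genes were named from the platform table: 17212 probes with no gene and 8 with several were not tested. The 52 member symbols were all found in RefSeq's gene table for GRCh38.p14.

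Intensities were background-corrected from the detection p-values, given an offset of 16, quantile-normalized and put on log2 by neqc in limma 3.58.1 (R 4.3.3). Probes detected (p-value under 0.01) on 3 arrays or more were fitted in a single limma model of group means (8 residual and 3.89 prior degrees of freedom), with two-sided tests and Benjamini-Hochberg adjustment over 14441 probes within each of 6 comparisons, called at an adjusted p under 0.05. Steps were tested on simulated data. Precision is limited by 3 arrays a group, where an exact permutation test of 1 probe cannot go below p = 0.1.

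The deviations of same-numbered arrays from their group means correlated in all 18 same-numbered pairs of arrays (0.102 to 0.426). The 36 different-numbered pairs gave -0.285 to 0.044. Replicate numbers were therefore taken as pairing the arrays, but the main fit uses group means only and leaves this pairing out. For siRb1 against control the main fit called 1 histone probe, and the fit with the number as a block called 11. The fit with the block is an alternative. Others were no background correction, median scaling, the deposited normalized intensities, no filter, detection on all arrays, 1 probe per gene, array weights, only the groups compared, and each array left out.

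The members, lists and tests were chosen with earlier results of these data known. Values on every array are given for the 8 clustered and 6 variant genes that passed the F test with the largest changes against control. H2BC12, H4C3 and H2AC18 were added after their values were seen. Up to 12 list genes with the largest changes are named. Probe sequences were not used here, so reads of near-identical paralogs by 1 probe were not examined. Figures were drawn in Python 3.11.15 with matplotlib 3.10.9.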

Additional observations from a re-analysis of the deposited data

Results flagged for a closer look

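One probe that the platform table pairs with 2 clustered H3 genes, ILMN_1881081, entered no comparison, because its signal cannot be given to 1 gene. It was detected on all 12 arrays. It read 7.52, 7.17 and 6.94 in control, 8.37, 9.12 and 9.26 with siOct4, 7.86, 8.33 and 8.47 with siCcnf+siNipp1, and 6.71, 6.58 and 6.95 with siRb1. All siOct4 arrays lay above all control arrays, with a difference in means of 1.71, and replicate 1 was again the lowest siOct4 array. The difference was not tested.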

How the results depend on the processing

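No fitted change of a called probe reversed its sign under any alternative, and 16 of 24, 17 of 24, 0 of 1, 10 of 18, 23 of 29 and 24 of 29 calls were kept under all of them, taking in turn the comparisons with control of siOct4, of siCcnf+siNipp1 and of siRb1, then siOct4 against siCcnf+siNipp1, and siOct4 and siCcnf+siNipp1 against siRb1. In that order, leaving out 1 array gave 18 to 30, 17 to 24, 0 to 1, 13 to 25, 23 to 37 and 24 to 31 calls, and 34 to 43 for the F test. The number called for siRb1 against control, 1, was 2 with no background correction and with detection on all arrays, 3 with median scaling and with the deposited values, 0 with no filter, 6 with array weights and with only the 2 groups, and 11 with the replicate block. The cause was not tested. The replicate block gave 32, 29, 26, 40 and 32 calls in the other 5 comparisons and 45 for the F test, and it ended 0 calls. Calls it added for siOct4 or siCcnf+siNipp1 against siRb1, and for H1-10, H1-2, H2AC18, H3-3A, H3C7, H4C11 and H4C15 in siOct4 against siCcnf+siNipp1, are not listed with the results.

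Median scaling moved the median of all probes to -0.106 for siRb1 against control, and the share of higher among all calls from 61.6% to 40%. For siOct4 against siRb1 that share went from 49% to 60.9%. Requiring detection on all 12 arrays removes probes undetected in 1 group. It gave 2 clustered falls with siOct4 (H4C3 and H4C12) in place of 5, and 3 with siCcnf+siNipp1 (H4C3, H4C12 and H2AC17) in place of 7. Dim members (H2BC14, H2BC18, H3C14, MACROH2A2) lie at the detection limit, where smaller changes were not detectable.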
